A study of Mus musculus with 16 samples.

Results

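The urea cycle and glutamine genes of mouse liver are described here across 4 groups of mice given cadmium (Cd), selenium (Se), both or neither. The 10 genes, Nags, Cps1, Slc25a15, Otc, Ass1, Asl, Arg1, Gls2, Oat and Glul, were taken by name from the 57010 rows of the deposited liver RNA-seq table. Each name matched 1 row, and all 10 were among the 11766 rows tested, which averaged 1 TPM or more over the libraries (TPM is a transcript level scaled for transcript length and to the same total in every library).

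All mice were wild-type male C57BL/6J animals. The methods give their age as 8 to 12 weeks, and the scheme of the study starts the diet at 8 weeks. Mice kept on the diet for 3 months were thus older when the liver was taken, and the age at that time is not stated. Liver RNA of 4 mice per group was sequenced, with 1 column of values per mouse, called a library here. Each sample title names a rep1 and a rep2, and the labels do not say what these are. Control mice were given neither agent. Cd mice received CdCl2 by intraperitoneal injection, 1.25 mg/kg each day over the final 7 days. Se mice ate a diet with 2 ppm selenomethionine (SeMet) for 3 months, and Cd+Se mice had both the diet and the injections. The sources used here do not say whether mice without Cd were given a vehicle injection, so an effect of injection and one of Cd cannot be told apart. The mice are named by the numbers in the labels, which run 27 to 30 for Control, 1, 2, 5 and 6 for Cd, 13 to 16 for Cd+Se, and 39, 40, 41 and 44 for Se.

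The urea cycle turns ammonia, which is toxic, into urea. In liver mitochondria, N-acetylglutamate made by Nags switches on Cps1, which joins ammonia and bicarbonate into carbamoyl phosphate, and Otc uses that product to convert ornithine, brought in by the carrier Slc25a15, to citrulline. In the cytosol Ass1, Asl and Arg1 carry citrulline through argininosuccinate and arginine to urea and ornithine. The cycle and the liver glutaminase Gls2, which feeds it with ammonia, are known as periportal functions, whereas glutamine synthetase, encoded by Glul, is confined to the last hepatocytes around the central vein and captures the ammonia that escapes. Oat, which breaks down ornithine, is known to share that pericentral position.

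Upstream sequences are shown for 3 members that act beside each other in mitochondria. Nags and Slc25a15 were called lower in Cd mice and Otc was not called, and the difference between the genes was not tested. Each run is the 250 bases before the annotated start of transcription, 5′ to 3′ on the strand of the gene, from RefSeq (GRCm38.p6), and capitals mark matches on either strand to the motifs named after it.
Nags: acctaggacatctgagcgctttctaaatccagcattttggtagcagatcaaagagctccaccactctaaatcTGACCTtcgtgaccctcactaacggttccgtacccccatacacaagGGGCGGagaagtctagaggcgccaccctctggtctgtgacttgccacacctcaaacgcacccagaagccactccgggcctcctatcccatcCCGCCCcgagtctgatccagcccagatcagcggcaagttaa
Slc25a15: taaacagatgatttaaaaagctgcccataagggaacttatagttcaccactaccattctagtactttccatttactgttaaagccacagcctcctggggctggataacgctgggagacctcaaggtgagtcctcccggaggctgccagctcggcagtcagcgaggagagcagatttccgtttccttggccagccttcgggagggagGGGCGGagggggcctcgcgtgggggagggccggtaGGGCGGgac
Otc: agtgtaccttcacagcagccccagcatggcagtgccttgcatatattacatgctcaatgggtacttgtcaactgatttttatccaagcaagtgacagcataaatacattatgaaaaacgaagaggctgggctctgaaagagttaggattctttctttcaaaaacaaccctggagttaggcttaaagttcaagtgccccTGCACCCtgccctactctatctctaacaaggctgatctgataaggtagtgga
The Nags window lies at chr11:102145263-102145512 on the plus strand and overlaps no annotated exon. It has a GC content of 55.6%, GC boxes (GGGCGG) beginning 132 and 41 bases before the start, and 1 arm of a nuclear receptor element (AGGTCA) beginning 178 bases before it. The Slc25a15 window, chr8:22398622-22398871 on the minus strand, holds GC boxes 44 and 9 bases before the start and has a GC content of 57.6%; it overlaps an exon of the noncoding gene 1810012K16Rik, and it is 1 of 2 listed for this gene. The Otc window, chrX:10252055-10252304 on the plus strand, overlaps no annotated exon, has a GC content of 43.6% and holds 1 match to the core of the metal response element (TGCGCNC or TGCACNC) 52 bases before the start. Windows were listed for 6 of the 10 members, Otc, Ass1, Nags, Slc25a15, Glul and Oat. They gave 7 windows, as Slc25a15 has 2. A GC box was found in 5 of the 7, against 33% of 32536 windows of all genes. The metal response core was found in 5 of the 7, against 21.5% of all windows, and for Slc25a15 it lay in the window that is not printed. AGGTCA was found in 2 of the 7 against 14%, and CCAAT in 2 against 33.8%. TATAAA, TTGCNNAA (a C/EBP site), CAAAGTCCA (a core site of HNF4) and TGACNNNGC (an antioxidant response core) were found in 0 of the 7, against 12.3%, 9.57%, 0.387% and 10.2% of all windows. The windows that are not printed had a GC content of 75.6% (Ass1), 80.4% (Slc25a15), 64.8% (Glul) and 60.0% (Oat). The median of all windows was 52.4%, and of the member windows only that of Otc lay under it. The GC box and the metal response core are strings rich in G and C, and the part of GC content in these counts was not tested. Such matches are short strings and do not mark used sites.

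A single limma model of log2(TPM + 1) took in all 16 libraries, and a gene was called where its Benjamini-Hochberg adjusted p over all 11766 genes was under 0.05. The pseudocount of 1 makes the fold changes of genes at few TPM smaller than those of the TPM themselves. For Rhbg, Slc22a3 and Slc25a12, named further on, the log2 ratios of mean TPM in Cd against Control were 0.93, 0.70 and -1.13, where the fitted values were 0.63, 0.43 and -0.95. TPM keep no depth, so the depth of the libraries is unknown. Correlations of log2(TPM + 1) between libraries ran from 0.9354 to 0.9808. Mt1 and Mt2, metallothionein genes whose products bind Cd, gave 3178 to 4899 and 2433 to 4493 TPM in Cd mice and 3621 to 6070 and 2765 to 5872 TPM in Cd+Se mice, against at most 431 and 306 TPM in mice without Cd, as the group labels say. Together these 2 genes took 0.626 to 0.939% of all TPM in Cd mice and 0.669 to 1.19% in Cd+Se mice. The median of all genes moved by -0.17 on the log2 scale in Cd against Control and by 0.17 in Cd+Se against Cd, a shift against which the changes of single genes are to be read. The library of Cd mouse 5 stood apart, with the lowest level in its group for 69.7% of the genes tested, and the tests of the members, the list counts and the ratios are also given without it. Among the other groups, Se mouse 40 had the highest level in its group for 59.5% of genes.

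Cell type markers were summed in each library as a check of the tissue. Hepatocyte markers (5 of 6 listed symbols were found) summed to between 40787 and 113127 TPM in the 16 libraries, and their ranges overlapped between the groups. Kupffer cell and macrophage markers (8 genes) summed to between 108 and 131 TPM in Control, 40.8 and 62.5 in Cd, 46.4 and 74.1 in Cd+Se and 60.3 and 144 in Se. Neutrophil markers (7 genes, of which Ly6g, Cxcr2, Mpo and Elane were under 1 TPM throughout) summed to between 5.82 and 16.1 TPM in Control, 31.5 and 40.2 in Cd, 44.5 and 73.9 in Cd+Se and 5.17 and 9.51 in Se. Sinusoidal endothelial markers (6 genes) were at 89.8 to 104 TPM in Control and 61.2 to 83.7 TPM in Cd, and overlapped between Cd and the other 2 groups. The sums for stellate cells, cholangiocytes, red blood cells, lymphocytes and kidney tubule overlapped between all groups, and the 5 pancreatic acinar markers were each under 1 TPM throughout. No marker found was at 0 in every library. The part of these cell types in the results below was not tested, and in whole tissue fewer hepatocytes and less RNA per hepatocyte cannot be told apart.

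In Control liver the order of the mean levels was Ass1, Arg1, Cps1, Glul, Asl, Oat, Otc, Gls2, Slc25a15 and Nags, from 1803 TPM down to 26.8 TPM (n = 4). Neighbours in this order had separate ranges over the 4 mice, except Glul (346 to 492 TPM) with Asl (377 to 402 TPM), and Otc (183 to 214 TPM) with Gls2 (168 to 194 TPM). Ass1 ranked 67th and Cps1 118th of the 57010 rows by mean level in Control, whereas Nags, the enzyme that makes the activator of Cps1, ranked 2493rd.

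**Figure D1:**
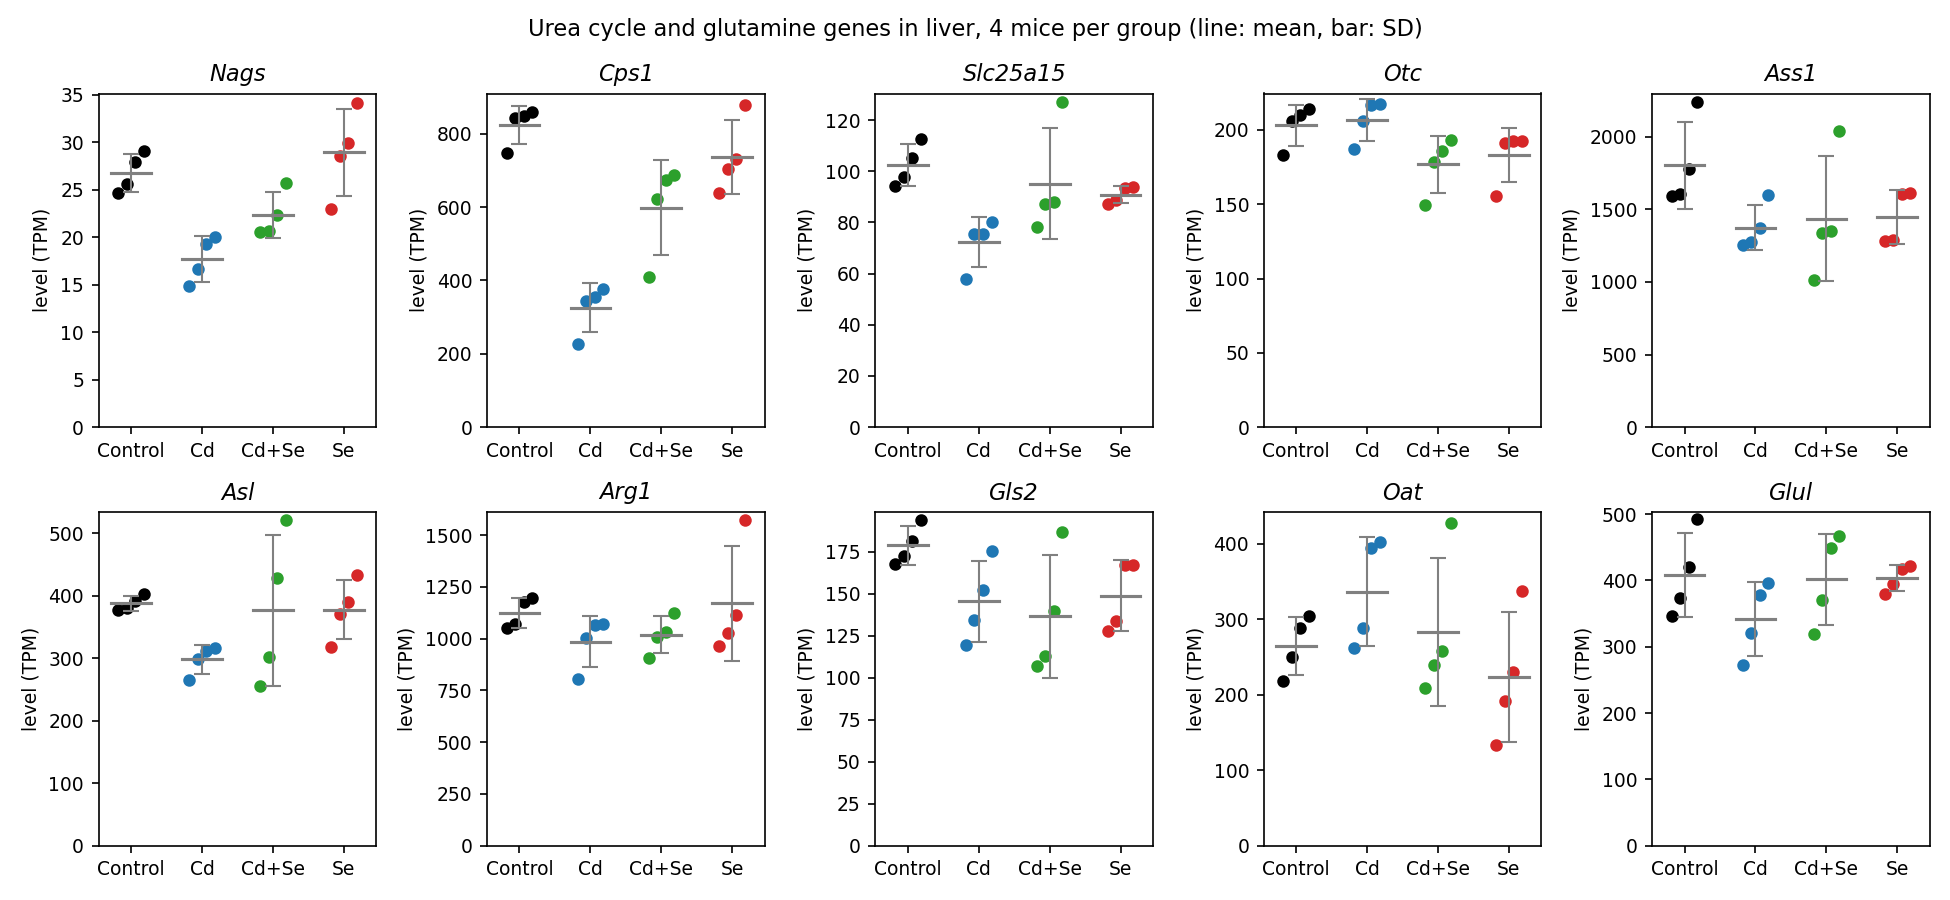
Level in TPM (vertical axes, from 0) of the 10 genes in Control, Cd, Cd+Se and Se mice, with 1 point per mouse, a line at the mean and a bar for the SD (n = 4). Cps1 was between 228 and 377 TPM in the Cd mice and between 747 and 860 TPM in the Control mice, while the points of Otc in these groups overlapped.

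Cps1, Nags and Slc25a15 were called lower in Cd mice than in Control mice. Cps1 fell the most, to a ratio of mean TPM of 0.395, and Nags and Slc25a15 fell to ratios of 0.661 and 0.706. Otc, the enzyme that takes up the product of Cps1, had a ratio of 1.02 and was not called, and neither were the 3 cytosolic enzymes, Gls2, Glul or Oat. In count, 3 of the 10 genes were called, all lower, while 30.8% of all genes tested were called in either direction and 24.9% were called lower, so the members' share was near that of all genes. The median log2 fold change of the 10 was -0.34, against -0.17 for all genes tested.

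Cps1, at chr1:67123026-67231259 (GRCm38), measured 747, 842, 848 and 860 TPM in the 4 Control mice. In Cd mice 1, 2, 5 and 6 it measured 354, 343, 228 and 377 TPM. The groups did not overlap, and the highest Cd mouse lay well under the lowest Control mouse. On the log2 scale the difference was -1.36, with a standard error of 0.18 and a 95% interval from -1.74 to -0.99 (limma adjusted p = 0.000169). Only 0.714% of all genes tested changed as much or more in that direction. Without Cd mouse 5 the log2 fold change was -1.20 (limma adjusted p = 0.000398), and Cps1 was called under all 26 alternative settings.

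Changes in Cd liver also ran with transcript length. Across 11561 genes with an annotated length, the Spearman correlation between length and log2 fold change was -0.305, a description across genes, which are not independent. Cps1 has a transcript of 5555 bases, and the 1873 tested genes of like length (0.8 to 1.25 times as long) had a median log2 fold change of -0.31. Of these, 0.534% fell as far as Cps1. With each library corrected for length and GC content, the log2 fold change of Cps1 was -1.05, and it was -1.14 with each library centred on its median.

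Nags, the synthase of the Cps1 activator (chr11:102145513-102149477, GRCm38), measured 29.1, 25.6, 27.9 and 24.7 TPM in the Control mice and 19.3, 16.7, 14.8 and 20.1 TPM in the Cd mice. No Cd mouse reached the lowest Control mouse. On the log2 scale the difference was -0.58 with a standard error of 0.13 (limma adjusted p = 0.00399), and -0.50 without Cd mouse 5 (limma adjusted p = 0.013). As many as 15.1% of all genes tested fell as much or more.

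Slc25a15, the carrier that exchanges ornithine and citrulline across the inner mitochondrial membrane (chr8:22375551-22398597, GRCm38), was at 105, 97.8, 94.4 and 113 TPM in Control and at 75.7, 75.7, 57.8 and 80.1 TPM in Cd mice. The 2 groups were again separate. The 2 means differed by -0.50 on the log2 scale, with a standard error of 0.14 (limma adjusted p = 0.0125). It was -0.40 without Cd mouse 5 (limma adjusted p = 0.0409). A fall as large or larger was seen in 19.9% of all genes tested. The call was lost with median centring (-0.28, limma adjusted p = 0.132) and with the length and GC correction (-0.25, limma adjusted p = 0.183).

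Otc, X-linked and encoded at chrX:10252305-10321024 (GRCm38), measured 214, 206, 183 and 210 TPM in Control mice. In Cd mice it measured 217, 217, 187 and 206 TPM. The 2 sets of values lay over each other. Their difference was 0.03 on the log2 scale, with a 95% interval from -0.20 to 0.26 (limma adjusted p = 0.88). A difference of the size seen for Nags lies outside that interval.

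The 3 cytosolic enzymes had lower mean levels in Cd liver but were not called. Ass1, which condenses citrulline with aspartate, measured between 1592 and 2235 TPM in Control and between 1254 and 1596 TPM in Cd (log2 fold change -0.38, limma adjusted p = 0.113). Asl, the lyase that releases arginine, was at 377 to 402 TPM in Control and 264 to 317 TPM in Cd. These Asl ranges did not overlap, yet the log2 fold change of -0.38 had a limma adjusted p = 0.106, and it was past the threshold (limma adjusted p = 0.0166) only when the model was limited to the 2 groups. Arg1, the arginase that frees urea, was at 1053 to 1195 TPM in Control and 805 to 1068 TPM in Cd (log2 fold change -0.20, limma adjusted p = 0.318). Quantile normalization brought Ass1 (-0.60, limma adjusted p = 0.00846) and Arg1 (-0.36, limma adjusted p = 0.0308) past the threshold, while median centring turned the sign of Arg1 (0.02). Counting groups without overlap, 4 of the 10 members, Cps1, Nags, Slc25a15 and Asl, were separate in Cd against Control, where 34.2% of all genes tested were.

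On the glutamine side no member passed the test in Cd against Control. Gls2, which releases ammonia from glutamine beside the cycle, ranged from 168 to 194 TPM in Control and from 120 to 176 TPM in Cd (log2 fold change -0.31, limma adjusted p = 0.17). Glul was at 346 to 492 TPM in Control and 272 to 396 TPM in Cd (-0.26, limma adjusted p = 0.198). Oat was the one member besides Otc with a higher mean in Cd mice, 336 ± 72.0 TPM against 265 ± 38.8 TPM (SD, n = 4), but its groups overlapped and its log2 fold change of 0.33 (95% interval -0.21 to 0.88) had a limma adjusted p = 0.348. Without Cd mouse 5 the 7 members that were not called had log2 fold changes from -0.41 (Asl) to 0.24 (Oat), with limma adjusted p values from 0.133 to 0.67. Cd mouse 5 had the lowest level in its group for 8 of the 10 members and the highest for 2, Asl and Oat.

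**Figure D2:**
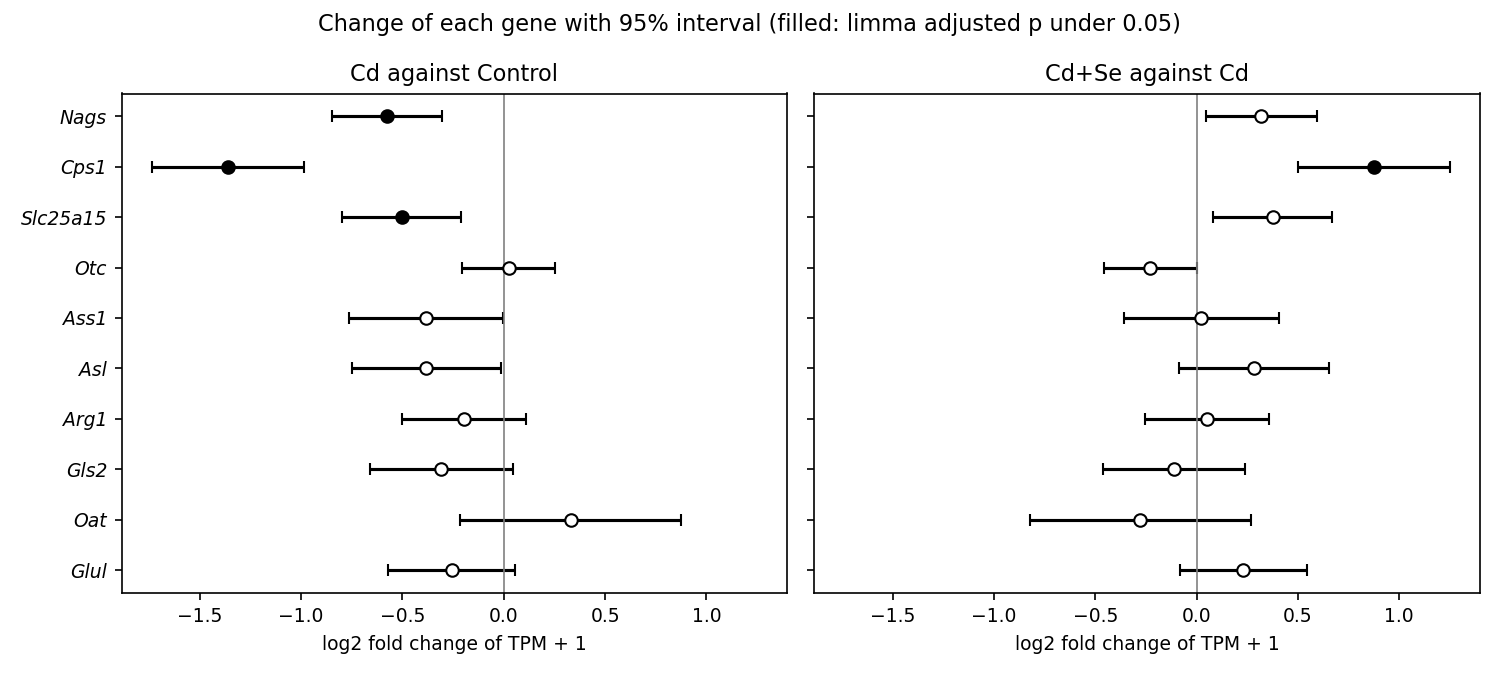
Log2 fold change of TPM + 1 (horizontal axes) of the 10 genes in Cd against Control and in Cd+Se against Cd, with 95% intervals from limma (n = 4 mice per group) and filled points where the adjusted p was under 0.05. Cps1 lies at -1.36 in the left panel and at 0.87 in the right one, with Otc at 0.03 and -0.23.

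In mice that had both Cd and the SeMet diet, Cps1 was higher than in mice with Cd alone. It was the only member called in this comparison, at a ratio of mean TPM of 1.84, and its level remained below that of every Control mouse. The comparison of Cd+Se with Cd uses the same Cd libraries as Cd against Control, so a low value in those libraries enters both. Of all genes tested, 15.9% were called and 13.6% were called higher, against 1 of the 10 members. The median log2 fold change was 0.14 for the members and 0.17 for all genes.

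Cps1 measured 689, 621, 673 and 410 TPM in Cd+Se mice 13 to 16. Mouse 16 was close to the highest Cd mouse, at 377 TPM, and the other 3 lay between the Cd and the Control mice. On the log2 scale it was higher by 0.87 than in Cd mice, with a standard error of 0.18 and a 95% interval from 0.50 to 1.25 (limma adjusted p = 0.00838). Without Cd mouse 5 it was 0.71 (limma adjusted p = 0.0216). When the model held only the 2 groups, the same change missed the threshold (limma adjusted p = 0.0676). As many as 1.90% of all genes rose as much or more, and of the genes of like length 1.39% did, with a median log2 fold change of 0.29 for that length. It was 0.59 with the length and GC correction and 0.68 with median centring.

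The other members were not called in Cd+Se against Cd. Slc25a15 was at 87.1, 78.4, 127 and 87.8 TPM in Cd+Se mice, with mouse 15 highest (log2 fold change 0.38, limma adjusted p = 0.0722). Nags was at 22.4, 25.7, 20.7 and 20.5 TPM, all above the Cd mice (0.32, limma adjusted p = 0.0972). With Cps1 it made 2 of 10 members without overlap, where 19.2% of all genes had none. Otc was lower in mean, at 186, 193, 150 and 178 TPM, with a log2 fold change of -0.23 (limma adjusted p = 0.154). Under median centring and under the length and GC correction Otc was called lower (-0.42 with limma adjusted p = 0.0283, and -0.41 with limma adjusted p = 0.0312). Asl spread widely in Cd+Se mice, from 256 to 521 TPM, and its log2 fold change was 0.28 (limma adjusted p = 0.269). Ass1, Arg1, Gls2, Glul and Oat had log2 fold changes between -0.28 and 0.23, with limma adjusted p values from 0.294 to 0.941. Without Cd mouse 5 the 9 members ran from -0.28 (Otc) to 0.31 (Asl), again with 0 called by limma (adjusted p from 0.13 to 0.97).

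Set against mice without Cd, the Cd+Se mice showed no called member. Against Control, 0 of 10 members were called by limma in Cd+Se mice, 2 having an unadjusted p under 0.05, and 0.484% of all genes were called. Of the 11766 genes tested, 1286 had an unadjusted limma p under 0.05 in this comparison. Cps1 had a log2 fold change of -0.49 there (95% interval -0.86 to -0.11, limma adjusted p = 0.298), and its 2 groups did not overlap, the 1 member of 10 without overlap, where 8.86% of all genes had none. Gls2 had one of -0.42 (limma adjusted p = 0.35). Against Se mice, 0 members were called by limma, with 1, Nags, at an unadjusted p under 0.05, and 0.714% of all genes were. Here too 1286 of all genes tested had an unadjusted limma p under 0.05. Cps1 was at 703, 877, 730 and 638 TPM in the Se mice, and Cd+Se differed from them by -0.32 on the log2 scale (limma adjusted p = 0.552).

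The SeMet diet alone gave no called member. In Se against Control 0 members were called by limma, with 0 at an unadjusted p under 0.05, and 0% of all genes were called. The changes of the 10 members ran from -0.31 for Ass1 and Oat to 0.10 for Nags, and the widest 95% interval, that of Oat, reached from -0.86 to 0.23. Slc25a15 and Gls2, 2 of the 10 members, had separate groups, where 3.09% of all genes tested had. Slc25a15 was at 87.4 to 93.9 TPM in Se mice against 94.4 to 113 TPM in Control and Gls2 at 128 to 167 TPM against 168 to 194 TPM. Each of these gaps was under 1 TPM.

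Whether the change with Cd differed between diets was tested as the interaction of Cd and Se. For Cps1 the difference of the 2 Cd effects was 1.04 on the log2 scale (standard error 0.25, 95% interval 0.51 to 1.57), with a limma adjusted p = 0.0531. This is just over the threshold, so 0 of 10 members were called, against 1.04% of all genes tested. It came under the threshold in 7 of 25 alternatives, among them quantile normalization (limma adjusted p = 0.0233), median centring (0.0373) and leaving out Cd mouse 1, Cd+Se mouse 16 or Se mouse 40 (limma adjusted p = 0.0492, 0.0286 and 0.0371). In the other alternatives it stayed over the threshold, with a limma adjusted p of up to 0.116 when 1 mouse was left out. Without Cd mouse 5 the difference was 0.88 (limma adjusted p = 0.0737). Slc25a15 followed, at 0.54 (limma adjusted p = 0.135), and it was the one other member with an unadjusted p under 0.05. Of the 11766 genes tested, 2505 had an unadjusted limma p under 0.05 in the interaction.

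**Figure D3:**
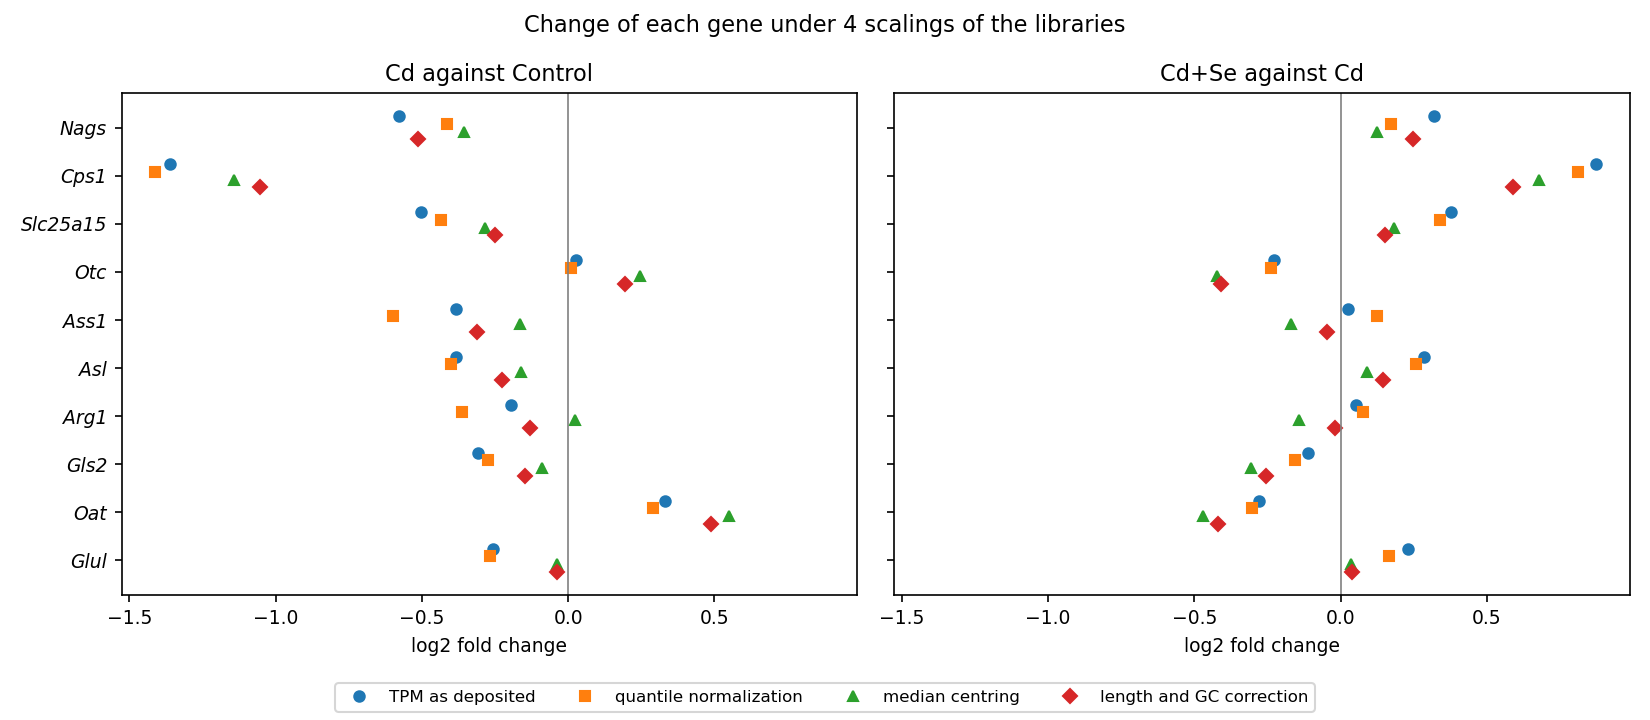
Log2 fold change (horizontal axes) of the 10 genes in Cd against Control and Cd+Se against Cd with the TPM as deposited, quantile normalization, median centring, and a correction for transcript length and GC content. The 4 values of Cps1 run from -1.41 to -1.05 on the left and from 0.59 to 0.87 on the right, while those of Arg1 lie on both sides of 0 in both panels.

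Ratios of 2 genes within a library do not depend on a factor common to the whole library, and they are given as descriptions with no test. Cps1 to Otc, the enzyme before and the enzyme after carbamoyl phosphate, was 4.06 ± 0.47 (SD, n = 4; TPM + 1) in Control, 1.56 ± 0.25 in Cd, 3.41 ± 0.91 in Cd+Se and 4.09 ± 1.04 in Se. The Cd mice ran from 1.22 to 1.83, or from 1.58 without mouse 5, and the mice of the other groups from 2.29 to 5.61. Cps1 to Arg1 was 0.737 ± 0.081 in Control, 0.328 ± 0.033 in Cd (0.343 ± 0.018 without mouse 5, n = 3), 0.589 ± 0.124 in Cd+Se and 0.640 ± 0.056 in Se. Of the summed TPM of the 5 cycle enzymes, Cps1 made up 15.6 to 20.8% in Control, 8.16 to 11.4% in Cd, 14.3 to 18.4% in Cd+Se and 17.9 to 19.6% in Se. In these values Cps1 was lower in Cd mice relative to Otc, Arg1 and the sum, and the difference between the genes was not tested. A ratio does not remove a shift that runs with transcript length. Genes of like length had a median log2 fold change in Cd against Control of -0.31 for Cps1, -0.22 for Otc and -0.07 for Arg1.

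The balance of the periportal glutaminase and the pericentral synthetase did not separate the groups. Gls2 to Glul was 0.446 ± 0.061 (SD, n = 4) in Control, 0.434 ± 0.085 in Cd, 0.359 ± 0.156 in Cd+Se and 0.372 ± 0.058 in Se, and these ranges overlapped between all groups. Cps1 to Glul, which sets the entry of the cycle against glutamine synthesis, ran from 1.52 to 2.48 in Control and from 0.837 to 1.17 in Cd, or from 0.894 without mouse 5. In Cd+Se it ran from 1.11 to 2.15, which overlapped the Cd mice, and in Se from 1.68 to 2.22.

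**Figure D4:**
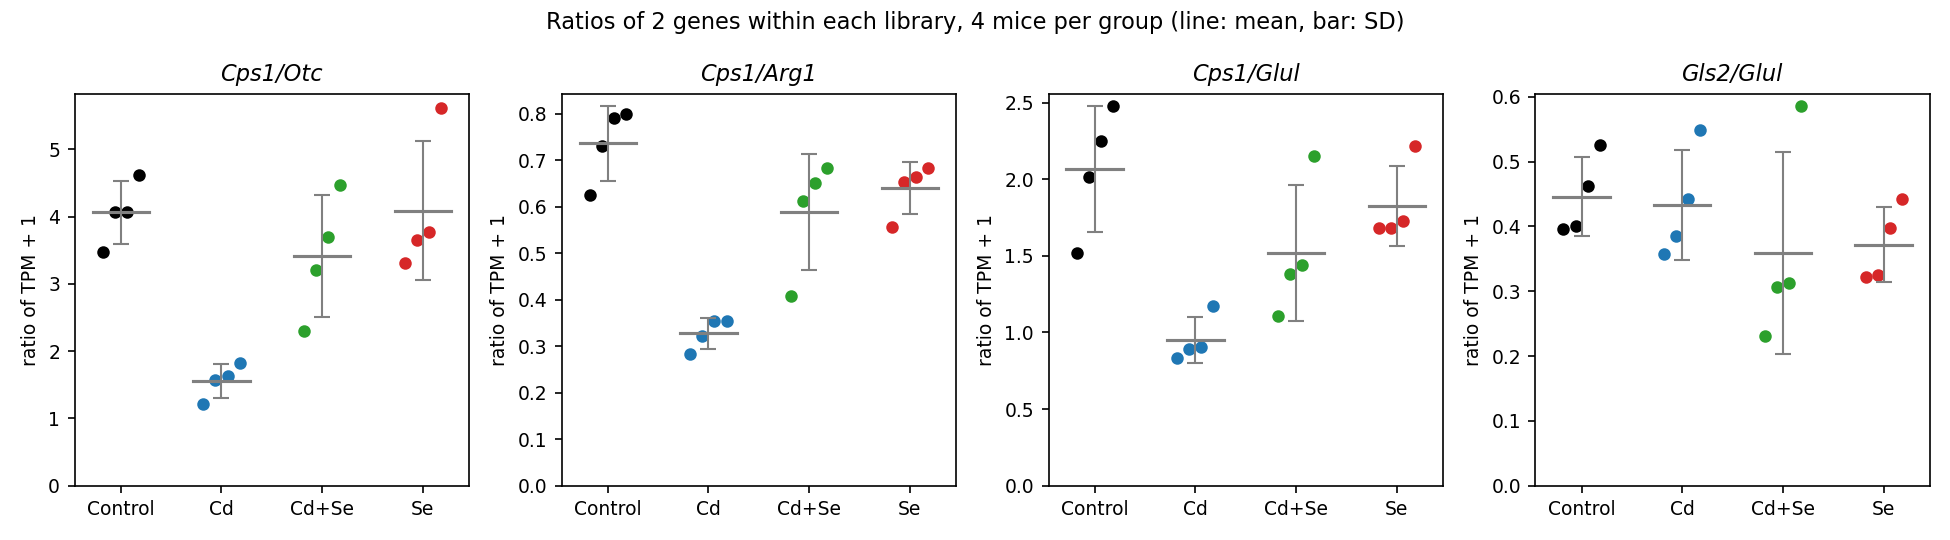
Ratio of TPM + 1 of 2 genes within each library (vertical axes, from 0) for Cps1/Otc, Cps1/Arg1, Cps1/Glul and Gls2/Glul, with 1 point per mouse, a line at the mean and a bar for the SD (n = 4). The Cd mice lie below the Control mice in the 3 ratios with Cps1 and overlap with them in Gls2/Glul.

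Other genes that supply the cycle with nitrogen, bicarbonate and carriers were called mostly lower in Cd liver, as were all genes tested, of which 685 were called higher and 2934 lower. With median centring 44.4% of all calls were lower. Of 32 ammonia, glutamate and arginine genes, 28 were tested, and 2 rose and 12 fell in Cd against Control, with a median log2 fold change of -0.43 against -0.17 for all genes. The background is 24.9% lower and 30.8% in either direction. Odc1, ornithine decarboxylase, which draws ornithine into polyamines, fell by 1.21 on the log2 scale (limma adjusted p = 0.000144). Its level was between 30.1 and 35.7 TPM in Control and between 10.5 and 16.1 TPM in Cd. Car5a, the mitochondrial carbonic anhydrase that provides bicarbonate to Cps1, fell by 0.98 (limma adjusted p = 0.000266), with 45.5 to 53.0 TPM in Control and 17.5 to 29.3 TPM in Cd. Slc25a13 and Slc25a12, the carriers that export aspartate from mitochondria, fell by 0.93 and 0.95. Prodh and Aldh4a1, which carry proline to glutamate, fell by 0.81 and 0.64. Rhbg, an ammonia transporter of pericentral hepatocytes, rose by 0.63 at levels of 0.66 to 3.02 TPM, and Fh1, fumarate hydratase, which takes up the fumarate that Asl releases, rose by 0.47. The call of Rhbg was lost in 7 of 25 alternative settings, with a limma adjusted p of up to 0.0849 when 1 mouse was left out, and that of Fh1 in 4 of 26 (limma adjusted p of up to 0.0801).

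Of these 28 genes, 5 rose and 1 fell in Cd+Se against Cd, where 13.6% of all genes were called higher and 15.9% in either direction. Odc1 rose by 1.01, Slc25a12 by 0.85, Slc25a13 by 0.61, Gpt2, the mitochondrial alanine aminotransferase, by 0.56 and Car5a by 0.49 on the log2 scale. Fh1 fell by 0.54. Without Cd mouse 5, 3 of the 28 (Odc1, Slc25a12 and Slc25a13) were called in this comparison and 10 in Cd against Control, and with only the 2 groups in the model 0 were called in Cd+Se against Cd. Car5a in Cd+Se mice was at 32.9 to 37.6 TPM, above every Cd mouse and under every Control mouse.

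**Figure D5:**
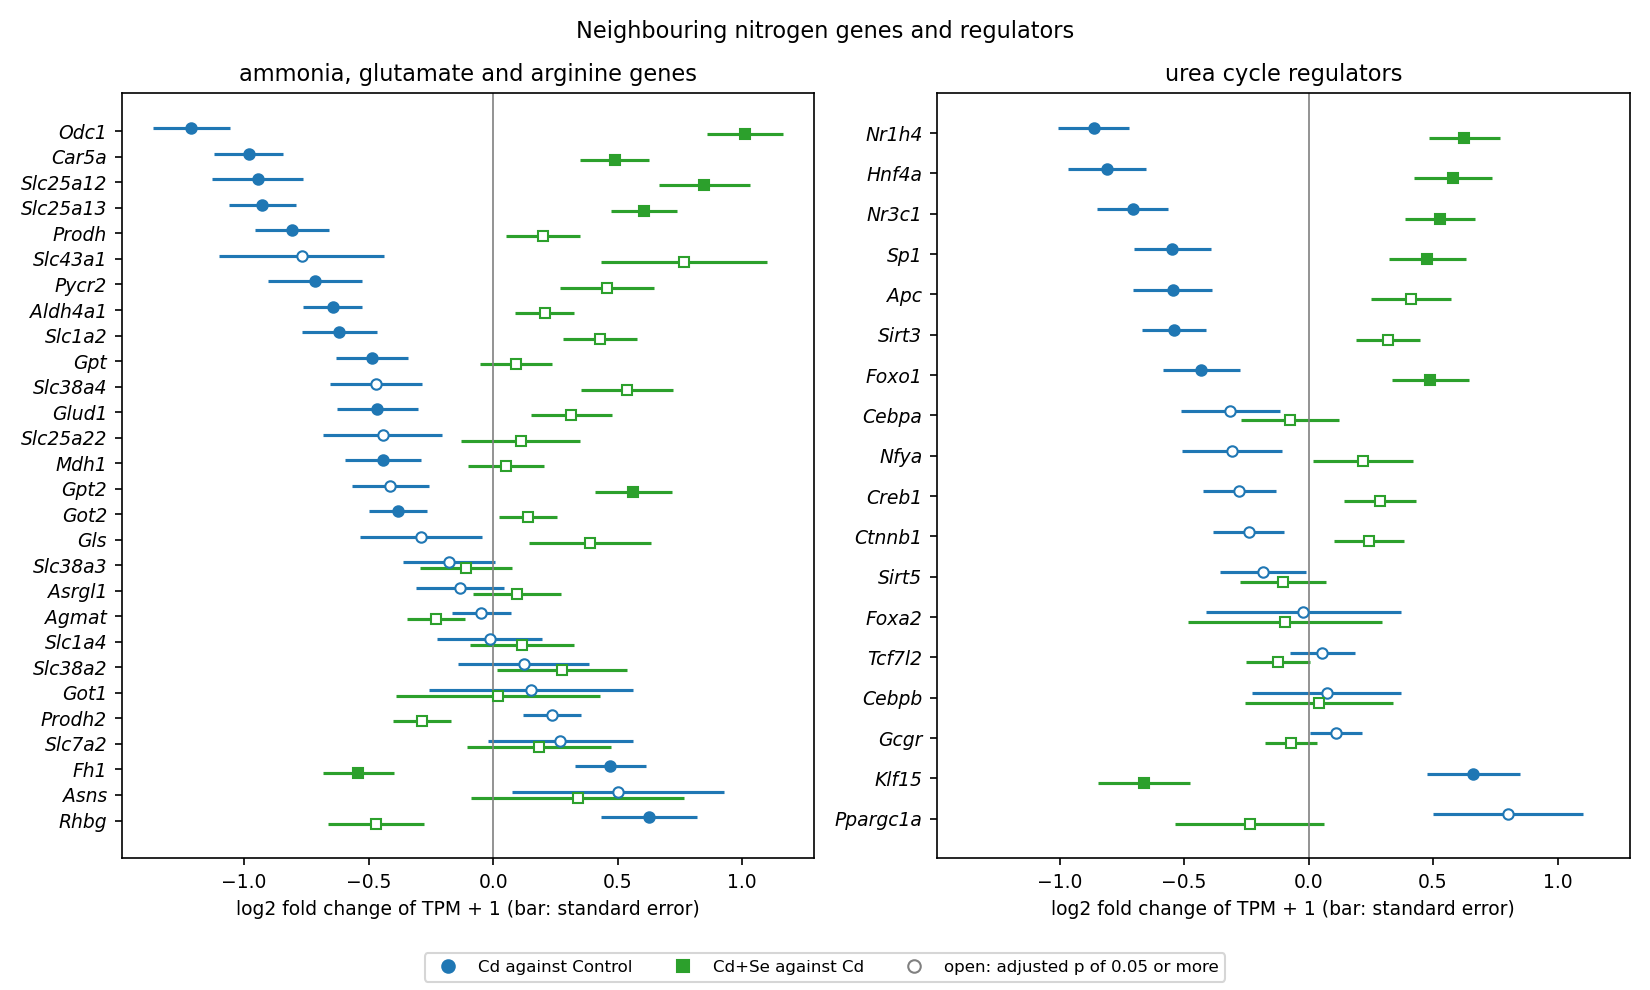
Log2 fold change of TPM + 1 (horizontal axes, bars give the standard error from limma, n = 4 mice per group) of 28 ammonia, glutamate and arginine genes and 18 regulators in Cd against Control (circles) and Cd+Se against Cd (squares), filled where the adjusted p was under 0.05. Odc1 lies farthest left of the circles at -1.21, and Nr1h4 and Hnf4a lead the regulators at -0.86 and -0.81. Both comparisons share the Cd libraries.

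Of 18 transcription factors and other regulators of the cycle or of its zonation, 7 fell and 1 rose in Cd against Control, where 24.9% of all genes were called lower and 30.8% in either direction. Their median log2 fold change was -0.29, against -0.17 for all genes. Hnf4a, the hepatocyte nuclear factor known to drive urea cycle genes, was at 138 to 165 TPM in Control and 70.1 to 94.7 TPM in Cd. Nr1h4, the bile acid receptor, was at 102 to 135 TPM in Control and 53.0 to 71.8 TPM in Cd. Neither gene overlapped between the groups, and they fell by 0.81 (limma adjusted p = 0.00173) and 0.86 (limma adjusted p = 0.000718) on the log2 scale. Nr3c1, the glucocorticoid receptor, fell by 0.71, Sp1, a factor that binds GC boxes, by 0.55, Sirt3, a mitochondrial deacetylase, by 0.54 and Foxo1, a factor of the fasting response, by 0.43. The call of Foxo1 was lost in 15 of 26 alternative settings, with a limma adjusted p of up to 0.139 when 1 mouse was left out. Klf15, a factor of amino acid breakdown, rose by 0.66, with 61.2 to 62.8 TPM in Control and 92.9 to 107 TPM in Cd.

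Among the regulators, 5 rose and 1 fell in Cd+Se against Cd, beside 13.6% of all genes called higher and 15.9% in either direction. Nr1h4 rose by 0.63, Hnf4a by 0.58, Nr3c1 by 0.53, Foxo1 by 0.49 and Sp1 by 0.48, and Klf15 fell by 0.66. The calls of Foxo1 and Sp1 were each lost in 17 of 26 settings. The count of called regulators was 1 (Nr1h4) without Cd mouse 5 and 3 without Cd mouse 6, Cd+Se mouse 14 or Cd+Se mouse 15, and it was 0 with only the 2 groups in the model.

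Among enzymes that break down amino acids and release ammonia, 0 of 24 rose and 6 fell in Cd against Control, beside 24.9% of all genes called lower, with a median log2 fold change of -0.12 against -0.17 for all genes. They were Dpys (-0.74), which breaks down pyrimidines and not amino acids, Aass, the first enzyme of lysine breakdown (-0.71), Gstz1 (-0.60) and Hpd (-0.52) of tyrosine breakdown, Kmo of tryptophan breakdown (-0.53) and Uroc1 of histidine breakdown (-0.38). The 1 gene called in Cd+Se against Cd, where 15.9% of all genes were called, was Hal, histidine ammonia lyase, which fell by 0.85. That call was lost without Cd mouse 5 or Cd+Se mouse 14 or 15, where 0 of the list were called, and 4 were called without Cd+Se mouse 13. In Se against Control, that is without Cd, the median log2 fold change of the list was -0.19, against 0.0071 for all genes. There 18 of the 24 had a negative log2 fold change, and limma called 0. An unadjusted limma p under 0.05 was found for 7 of them, beside 454 of the 11766 genes tested.

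Genes of the periportal and pericentral zones beyond the members were counted in the same way. Of 14 periportal genes tested, 0 rose and 4 fell in Cd against Control, a share near the 24.9% of all genes called lower. They were Cyp2f2 (-0.86), Pigr (-0.81), Fbp1 (-0.69) and G6pc (-1.34). Called or not, 5 of the 14 had a positive log2 fold change and 9 a negative one. The call of G6pc was lost in 7 of 26 settings (limma adjusted p of up to 0.0673 with 1 mouse left out). G6pc was at 367 to 559 TPM in Control, 147 to 220 TPM in Cd and 78.5 to 482 TPM in Se. Low levels of G6pc were thus also seen in mice without Cd. Against Cd, 3 of the 14 periportal genes rose in Cd+Se, Ctsc (0.63), Pigr (0.51) and Fbp1 (0.48), and Hal fell. In that comparison 13.6% of all genes were called higher and 15.9% in either direction. The call of Fbp1 was lost in 11 of 26 settings. This count of 4 became 0 without Cd mouse 5, 1 without Cd+Se mouse 14 and 2 without Cd+Se mouse 15. Of 21 pericentral genes tested, 2 rose and 4 fell in Cd against Control, a share near the 30.8% of all genes called in either direction. Rhbg rose by 0.63 and Slc22a3, an organic cation transporter, by 0.43, whereas Rnf43, an inhibitor of Wnt signaling, fell by 0.99, Cyp2c29 by 0.79, Tbx3, a target of Wnt signaling in pericentral hepatocytes, by 0.76 and Slc1a2, a glutamate transporter, by 0.62. The call of Tbx3 was lost in 16 of 26 settings, with a limma adjusted p of up to 0.127 when 1 mouse was left out, that of Slc22a3 in 8 of 25 (up to 0.121) and that of Rnf43 in 3 of 26 (up to 0.0573). This count of 6 became 2 without Cd mouse 5 or Control mouse 29 and 3 without Control mouse 28. Against Cd, limma called 0 pericentral genes in Cd+Se, with 4 at an unadjusted p under 0.05. Of the 11766 genes tested, 15.9% were called and 3891 had an unadjusted limma p under 0.05. The count of pericentral genes called was 1 without Cd mouse 1 or Cd+Se mouse 13, 15 or 16.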

How the data were processed

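Liver RNA was extracted with TRIzol, and libraries were made and sequenced by a company. The authors deposited 1 table of TPM for 57010 genes and 16 libraries. The submitters' processing notes name fastp, HISAT2 and StringTie, without versions, and the build GRCh38, a human build, although the gene identifiers are those of mouse; gene positions here are from GENCODE M21 (GRCm38). Counts and depth are not given, so precision rests on the 4 mice per group. Genes averaging 1 TPM or more (11766) were fitted as log2(TPM + 1) with limma 3.58.1 in R 4.3.3, with group means, an intensity trend and Benjamini-Hochberg adjustment, after the steps were tested on simulated data. The 6 comparisons include the interaction. Named genes were all 10 members and, from each of 5 other lists, up to 6 with the smallest adjusted p in each of 2 comparisons. Members and lists were chosen with earlier results of these data known. The alternatives tried are other pseudocounts, filters, scalings and models, and leaving out each mouse. The length and GC correction (loess, span 0.5) and the restriction to protein-coding genes were chosen after seeing the data. One gene of the pericentral list is not reported here and is left out of its counts.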

Additional observations from a re-analysis of the deposited data

Results flagged for a closer look

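For each gene and group the isolation of the highest and the lowest mouse was computed, as its distance to the next mouse divided by the range of the 4. In 3 of 172 cases this share was larger than replicates of 1 group usually give, where chance at 1 in 20 would give 8.6. Cps1 in Control had a share of 0.847, with mouse 27 at 746.5 TPM and the others between 842.3 and 859.6 TPM. Otc in Se had a share of 0.971, with mouse 40 at 155 TPM and the others between 191 and 193 TPM. Cyp2f2 in Cd+Se had a share of 0.927, with mouse 14 at 463 TPM and the others between 319 and 330 TPM.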

How the results depend on the processing

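No paired analysis was possible because the mouse numbers differ between the groups. Cps1, Nags and Slc25a15 stayed below Control in Cd under all alternatives tried. The cause was not tested for any change of call given here. Of the members, 3 were called in Cd against Control, 5 with quantile normalization and 1 with a log2 fold change of at least 1 asked for. Slc25a15 also lost its call with median centring and with the length and GC correction, and Asl gained one with only the groups compared. Small moves of the list counts are not all given here. For Cd+Se against Cd 1 was called, 2 with median centring or the length and GC correction, and 0 with only the groups compared or with that fold asked for. In the interaction 0 were called, and 1 (Cps1) was with a mean of at least 5 TPM, quantile normalization, median centring or protein-coding genes only. Leaving out 1 mouse gave 3 to 3, 1 to 1 and 0 to 1 members in these comparisons. Of the ammonia, glutamate and arginine genes, 14 were called in Cd against Control, 1 with the fold asked for, 9 with the length and GC correction and 10 to 16 with 1 mouse left out, and 6 in Cd+Se against Cd, 0 with only the groups compared, 1 with the fold asked for and 3 to 7 with 1 mouse left out. Of the amino acid breakdown enzymes, the 6 in Cd against Control became 0 with the fold asked for and 5 to 7 with 1 mouse left out, and the 1 in Cd+Se against Cd became 2 with a pseudocount of 0.1, 0 with no filter, only the groups compared or the fold asked for, 3 with a mean of at least 5 TPM or protein-coding genes, 4 with quantile normalization or the length and GC correction, 5 with median centring and 0 to 4 with 1 mouse left out. Of the periportal genes, the 4 in Cd against Control became 1 with the fold asked for and 3 to 5 with 1 mouse left out, and the 4 in Cd+Se against Cd became 2 with no filter or median centring, 0 with only the groups compared or the fold asked for and 0 to 5 with 1 mouse left out. Of the pericentral genes, the 6 in Cd against Control became 3 with no filter, 0 with the fold asked for and 2 to 6 with 1 mouse left out, and the 0 in Cd+Se against Cd became 2 with quantile normalization or the length and GC correction, 3 with median centring and 0 to 1 with 1 mouse left out. Of the regulators, the 8 in Cd against Control became 0 with the fold asked for and 6 to 9 with 1 mouse left out, and the 6 in Cd+Se against Cd became 2 with no filter or the length and GC correction, 0 with only the groups compared or the fold asked for and 1 to 7 with 1 mouse left out. Over all genes, 3619 were called in Cd against Control, 376 with the fold asked for, and 1876 in Cd+Se against Cd, 1131 with no filter, 66 with only the groups compared, 110 with the fold asked for and 712 to 2164 with 1 mouse left out. The share of lower calls in Cd against Control was 81.1% as deposited, 57.1% with quantile normalization, 44.4% with median centring and 56.8% with the length and GC correction. Signs turned for the following log2 fold changes, none of which was called in that comparison. With median centring they were Arg1 (0.023) in Cd against Control, and Ass1 (-0.17), Arg1 (-0.14), Kmo (-0.14), Uroc1 (-0.19), G6pc (-0.12) in Cd+Se against Cd, and Glul (0.013) in Cd+Se against Se, and Arg1 (-0.17), Gls2 (-0.026), Oat (-0.15) in the interaction. With the length and GC correction they were Ass1 (-0.046), Arg1 (-0.019), Kmo (-0.17), Uroc1 (-0.20), G6pc (-0.089) in Cd+Se against Cd, and Glul (0.0022) in Cd+Se against Control, and Glul (0.016) in Cd+Se against Se, and Arg1 (-0.027), Oat (-0.094) in the interaction. With quantile normalization they were Uroc1 (-0.018) in Cd+Se against Cd, and Oat (-0.012) in Cd+Se against Control. With 1 mouse left out, values of both signs were found for Otc (-0.024 to 0.073) in Cd against Control, and Ass1 (-0.16 to 0.18), Arg1 (-0.043 to 0.11), Kmo (-0.036 to 0.10), Uroc1 (-0.055 to 0.042), G6pc (-0.16 to 0.19), Tbx3 (-0.23 to 0.26) in Cd+Se against Cd, and Asl (-0.27 to 0.069), Glul (-0.11 to 0.076), Oat (-0.16 to 0.18) in Cd+Se against Control, and Asl (-0.11 to 0.035), Arg1 (-0.12 to 0.12), Glul (-0.080 to 0.089) in Se against Control, and Otc (-0.13 to 0.028), Ass1 (-0.23 to 0.10), Asl (-0.23 to 0.11), Slc25a15 (-0.11 to 0.12), Glul (-0.10 to 0.081) in Cd+Se against Se, and Otc (-0.15 to 0.0021), Arg1 (-0.074 to 0.17), Gls2 (-0.0030 to 0.26), Oat (-0.18 to 0.26) in the interaction.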
